A study of Caenorhabditis elegans with 5 samples.

Results

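Transcripts of the 6 collagens of the annular furrows, dpy-2, dpy-3, dpy-7, dpy-8, dpy-9 and dpy-10, were followed in wild type N2 Caenorhabditis elegans between the last larval stage, L4, and the sixth day of adulthood. The genes were taken by symbol, through the aliases or WormBase IDs in the count files, and each matched 1 of 19176 features. All 6 were lower in every Day 6 library than in either L4 library. With all libraries dpy-3 and dpy-7 had the largest fitted changes, 289-fold and 209-fold lower at Day 6, while dpy-10 had the smallest, 11.9-fold lower. The order at the top depends on single libraries: without L4 replicate 1 the largest log2 fold change was that of dpy-8 (-6.91), ahead of dpy-7 (-6.42) and dpy-3 (-6.18), and dpy-8 (-8.38) also came first without Day 6 replicate 2.

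The cuticle of C. elegans is a collagen matrix that the epidermis secretes and replaces at each moult. Annular furrows are the narrow circumferential grooves of its surface, and the products of these 6 genes are needed for them: animals that lose any one are short and fat (dumpy) and have no furrows. Transcripts of cuticle collagens rise and fall with each moulting cycle in larvae, those of furrow collagens early in the cycle, and the adult cuticle, made at the end of L4, is the last. Loss of furrow collagens is also known to switch on osmotic, detoxification and antimicrobial genes in the epidermis.

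On the WBcel235 assembly 3 of the genes lie on chromosome X and all 6 are protein coding. dpy-3 (WBGene00001065) is at 2144605 to 2145647, dpy-8 (WBGene00001070) at 5148804 to 5150476 and dpy-7 (WBGene00001069) at 7536467 to 7537792, each on the minus strand. On chromosome II, dpy-10 (WBGene00001072, minus strand, 6710149 to 6712227) and dpy-2 (WBGene00001064, plus strand, 6714292 to 6715971) face away from each other, with 2064 bases between their starts. dpy-9 (WBGene00001071) is on the minus strand of chromosome IV at 257403 to 259204. The genes are short, with a summed exon length of 961 bases in dpy-3, 1049 in dpy-9, 1147 in dpy-7, 1324 in dpy-2, 1513 in dpy-8 and 1593 in dpy-10. Of the exon bases of dpy-10, 780 are shared with T14B4.19, a gene model on the same strand that was not analysed here, and 109 exon bases of dpy-8 lie opposite C31H2.14, so the counts of both genes are less certain than those of the others.

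The study compared L4 larvae with adults to follow changes of expression with age. There were 3 libraries of Day 6 adults, kept from L4 on 25 µg/mL FUdR, which blocks DNA synthesis and so reproduction, and 2 of L4 larvae without FUdR. Age and FUdR therefore changed together and cannot be told apart. All animals were N2, grown at 20° with 2 mM IPTG on HT115, an E. coli strain that held the empty RNAi vector L4440. RNA came from whole animals, in which fewer epidermal cells and less collagen RNA per cell cannot be told apart, and the methods call the replicates independent biological ones.

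Total counts were 13043617 to 29247719 in the Day 6 libraries and 14517986 and 9368922 in L4 replicates 1 and 2. The L4 libraries stood apart from each other. Across genes, which are no replicates of each other, Pearson's r of their log2 levels was 0.80, against 0.96 to 0.97 for pairs of Day 6 libraries. Their scaling factors (TMM) also differed, at 0.293 in L4 replicate 1 and 1.62 in L4 replicate 2, against 1.03 to 1.63 at Day 6. Levels are given in CPM, the counts scaled to the library size after TMM, and as unscaled CPM where the total count was used in its place. Which L4 library is the higher for a given gene depends on this scaling: after TMM 5 of the 6 furrow collagens were higher in L4 replicate 1, but in unscaled CPM only dpy-3 and dpy-9 were, and 4 were lower.

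Together the 6 genes held 161, 134 and 128 counts in Day 6 replicates 1, 2 and 3, against 4574 and 4125 in L4 replicates 1 and 2. In unscaled CPM this was 5.50 (95% exact Poisson interval 4.69 to 6.42), 10.3 (8.61 to 12.2) and 9.54 (7.96 to 11.3) at Day 6, against 315 (306 to 324) and 440 (427 to 454) at L4. These intervals cover counting error only. The lower L4 library was thus 30.7-fold above the highest Day 6 library before TMM scaling. As a share of the counts of all 173 cuticle collagen genes (these 6, the other collagens of body shape and the genes named col-), the 6 took 0.0478% to 0.0970% at Day 6, against 1.06% and 0.576% in L4 replicates 1 and 2. They made up a smaller part of collagen transcripts in each Day 6 library than in either L4 library. This was not particular to the 6. The other collagens of body shape summed to 43.4 to 64.3 CPM at Day 6, against 11739 and 8215 in L4 replicates 1 and 2. The genes named col- kept more, at 7790 to 11126 CPM at Day 6, against 88500 and 38906 at L4.

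With edgeR's quasi-likelihood test and Benjamini-Hochberg adjustment over 12758 genes, all 6 fell (adjusted p under 0.05), against 12.5% of all genes tested. The 2 groups did not overlap for any of the 6, against 23.4% of all genes that were lower in every Day 6 library. The median log2 fold change of the 6, Day 6 over L4, was -6.88, against 0.08 for all genes tested. All 6 also fell without L4 replicate 1, where 24.1% of all genes fell, and without L4 replicate 2, where 24.2% of all genes fell. These fits have a single L4 library, which is assumed to vary like those of Day 6.

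**Figure D1:**
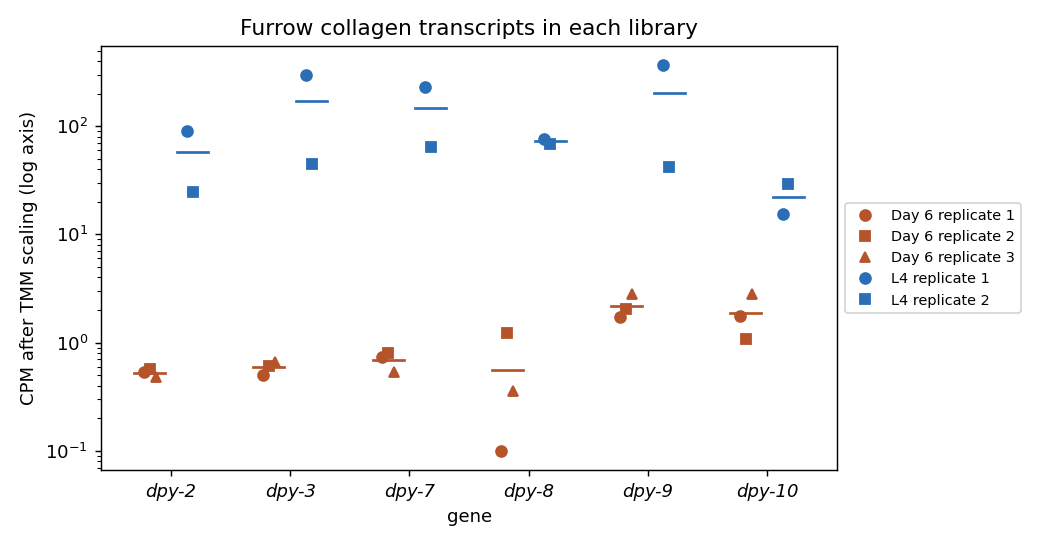
CPM after TMM scaling (log axis) of each furrow collagen in the 3 Day 6 libraries (left, orange) and the 2 L4 libraries (right, blue). Bars are group means. No Day 6 library reached an L4 library for any gene. The L4 libraries lie close together for dpy-8 (75.9 and 69.1 CPM) and far apart for dpy-9 (366 and 41.5 CPM); in unscaled CPM the reverse held (22.2 and 111 for dpy-8, 107 and 66.9 for dpy-9).

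dpy-7, whose promoter is widely used to drive expression in the epidermis, had 22, 17 and 9 counts in Day 6 replicates 1 to 3, against 974 and 965 in L4 replicates 1 and 2. In CPM these were 0.730, 0.801 and 0.536 at Day 6, against 229 and 63.9 at L4. Its Day 6 libraries were near each other, and its lower L4 library was 79.7-fold above its highest Day 6 library (51.5-fold in unscaled CPM). Fitted with edgeR, its log2 fold change was -7.71 (standard error, SE, 0.76, 95% interval -9.47 to -5.95, edgeR adjusted p = 0.00353), -6.42 without L4 replicate 1.

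dpy-3, the shortest of the 6, had 15, 13 and 11 counts at Day 6, against 1269 and 676 at L4. Its CPM was 0.498, 0.613 and 0.655 in the Day 6 libraries, against 298 and 44.7 in L4 replicates 1 and 2. L4 replicate 1 was the higher by far after TMM, but in unscaled CPM the 2 were at 87.4 and 72.2. The fitted change of -8.18 (SE 0.94, edgeR adjusted p = 0.00362), the largest of the 6, was -6.18 on the log2 scale without L4 replicate 1. Only 75 of all genes tested had a lower fold change with all libraries.

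dpy-8 differed among the Day 6 libraries. It had 3, 26 and 6 counts in Day 6 replicates 1 to 3, with 95% exact Poisson intervals of 0.619 to 8.77, 16.98 to 38.1 and 2.20 to 13.1, against 323 and 1044 counts at L4. Day 6 replicate 2 thus stood above the others beyond counting error, although it was not the most deeply sequenced library. This spread was not particular to dpy-8. In CPM the other collagens of body shape that fell were also lowest in Day 6 replicate 1, except sqt-3. Examples are bli-2 (0, 48 and 36 counts) and lon-3 (2, 32 and 15), whereas sqt-3 had 336, 181 and 140. In CPM dpy-8 was at 0.0996, 1.23 and 0.357 at Day 6, against 75.9 and 69.1 at L4. It fell by 7.02 on the log2 scale (SE 0.97, edgeR adjusted p = 0.00462) and fell by 8.38 without Day 6 replicate 2. C31H2.14, which overlaps it on the other strand, had 31, 26 and 15 counts at Day 6, against 0 and 16 at L4. It thus had more counts than dpy-8 in Day 6 replicates 1 and 3 and as many in replicate 2, and reads of the 2 genes may not have been told apart; the part of C31H2.14 in the Day 6 counts of dpy-8 was not tested.

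dpy-2 had 16, 12 and 8 counts at Day 6, against 385 and 372 at L4, and 0.531, 0.566 and 0.476 CPM at Day 6, against 90.4 and 24.6 at L4. It fell by 6.75 on the log2 scale (SE 0.73, edgeR adjusted p = 0.00353), and fell by 5.45 with L4 replicate 1 left out. Of the 6 it lay nearest to their mean profile over the 5 libraries (Euclidean distance 0.467 on the log2 scale, against 1.28 to 3.54 for the others).

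dpy-10, its neighbour on chromosome II, is the gene whose dumpy and roller alleles serve as visible markers in genome editing of C. elegans. It had 53, 23 and 47 counts at Day 6, against 66 and 441 in L4 replicates 1 and 2. Its CPM was 1.76, 1.08 and 2.80 at Day 6, against 15.5 and 29.2 at L4. It had the lowest L4 mean of the 6, and after TMM it alone was lower in L4 replicate 1 than in L4 replicate 2, whereas in unscaled CPM dpy-2, dpy-7 and dpy-8 were too. It fell by 3.58 on the log2 scale (SE 0.63, 95% interval -5.03 to -2.12, edgeR adjusted p = 0.00868). In unscaled CPM its lowest L4 library (4.55) was 1.30-fold above its highest Day 6 library (3.50), whereas this gap was 11.2-fold to 72.4-fold in the other 5 genes.

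The call of dpy-10 was the least secure. It did not pass when any 1 of the Day 6 libraries was left out (adjusted p = 0.0650, 0.0555 and 0.0521 without replicates 1, 2 and 3, edgeR), so that 5 of the 6 fell in each of these fits, against 2.38%, 4.14% and 2.49% of all genes. With library size in place of TMM, dpy-10 and dpy-8 did not pass (adjusted p = 0.15 and 0.0745) and 4 of the 6 fell, against 1.37% of all genes. The replicate was also taken as a block, since samples of 1 replicate were prepared together. All 6 then fell by the numbers in the sample titles (5.06% of all genes). By those in the library names 5 fell, without dpy-10 (adjusted p = 0.0729, edgeR), against 2.81% of all genes. The block fits leave few degrees of freedom for the error. In each, a Day 6 library that shares its number with no L4 library adds nothing to the comparison.

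dpy-9, the member on chromosome IV, had the highest level of the 6 per exon length in each Day 6 library. It had 52, 43 and 47 counts there, against 1557 and 627 at L4, and 1.73, 2.03 and 2.80 CPM at Day 6, against 366 and 41.5 at L4. After TMM the gap between its L4 libraries was the widest of the 6, but in unscaled CPM (107 and 66.9) that of dpy-10 was (4.55 and 47.1). The fitted change of -6.54 (log2, SE 0.97, edgeR adjusted p = 0.00556) was -4.19 without L4 replicate 1 and -7.39 without L4 replicate 2.

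**Figure D2:**
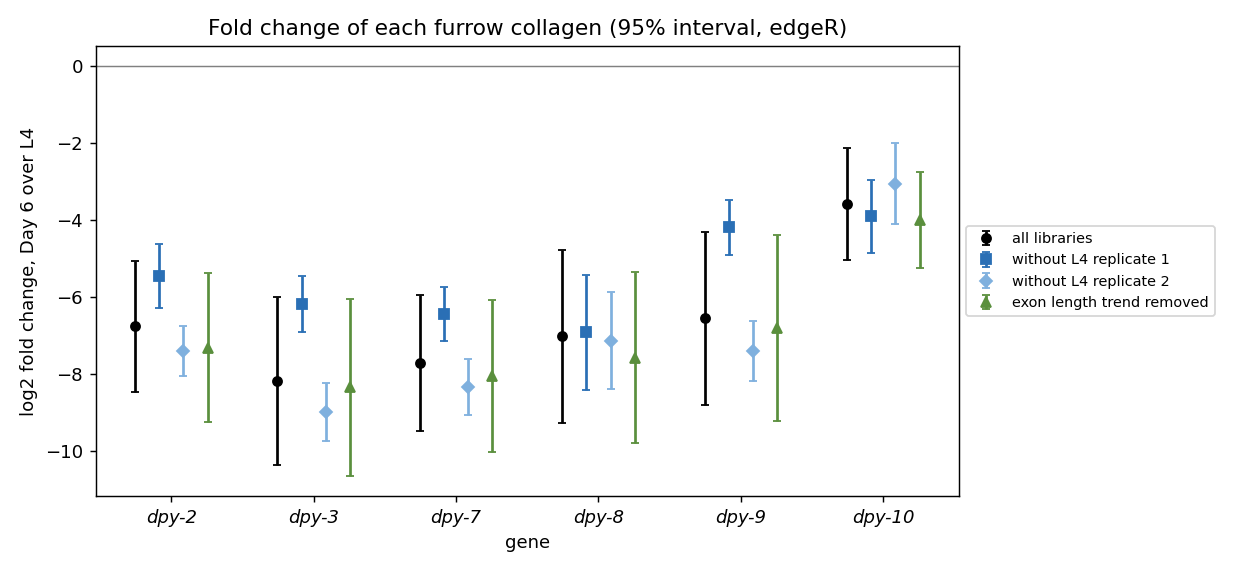
Fitted log2 fold change (Day 6 over L4) of each furrow collagen with its 95% interval from edgeR, with all libraries, without either L4 library, and after removal of the exon length trend. Every interval lies below 0. dpy-10 is the least changed in each fit, and the position of dpy-9 shifts most with the L4 library left out (-4.19 and -7.39).

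Levels per exon length show how the 6 transcripts stood to each other. In FPKM, CPM per kilobase of exon, Day 6 means were 2.08 ± 0.53 for dpy-9, 1.18 ± 0.54 for dpy-10, 0.613 ± 0.0846 for dpy-3, 0.601 ± 0.120 for dpy-7, 0.396 ± 0.0340 for dpy-2 and 0.371 ± 0.390 for dpy-8 (SD, n = 3). At L4 the order was dpy-9 at 194 ± 219, dpy-3 at 178 ± 186, dpy-7 at 128 ± 102, dpy-8 at 47.9 ± 3.17, dpy-2 at 43.4 ± 35.1 and dpy-10 at 14.03 ± 6.07 (SD, n = 2). The ranges of neighbours in these orders overlapped, except those of dpy-7 and dpy-2 at Day 6, and of dpy-7 and dpy-8 and of dpy-2 and dpy-10 at L4. dpy-10 was the last of the 6 in both L4 libraries, at 9.73 and 18.3 FPKM, but ranked 2 of 6 in Day 6 replicates 1 and 3 and 4 of 6 in Day 6 replicate 2.

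The share of each gene in the summed per-length level of the 6 does not depend on how libraries are scaled. It still carries the gap between the L4 libraries that ran with exon length (below), and the less certain counts of dpy-8 and dpy-10. dpy-10 took 25.3%, 13.1% and 28.5% of this sum at Day 6, against 0.987% and 8.17% in L4 replicates 1 and 2. dpy-9 took 37.6%, 37.3% and 43.2% at Day 6, against 35.3% and 17.6% at L4. Both genes had a larger share in each Day 6 library than in either L4 library. The reverse held for dpy-3, at 11.9%, 12.3% and 11.05% at Day 6, against 31.4% and 20.7% at L4. It held too for dpy-7, at 14.6%, 13.5% and 7.57% at Day 6, against 20.2% and 24.8% at L4. The shares of dpy-2 (5.83% to 9.18% at Day 6, 6.92% and 8.29% at L4) and dpy-8 (1.51% to 15.6% at Day 6, 5.08% and 20.4% at L4) overlapped between the groups. In two-sided exact permutation tests over libraries the p of dpy-3, dpy-7 and dpy-9 was 0.10, the smallest that 3 against 2 libraries allow, and 0.20 when adjusted over the 6 genes. That of dpy-10 was 0.20 (0.30 adjusted), and no share could have passed 0.05 in this design.

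**Figure D3:**
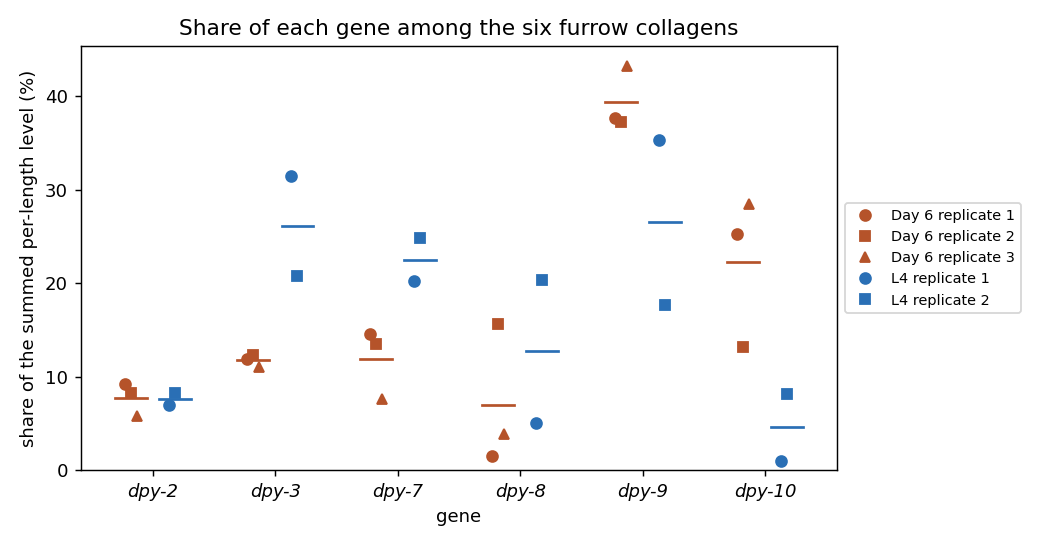
Share (%) of each gene in the summed per-length level of the 6 furrow collagens, by library, Day 6 left and L4 right, with bars at the group means. dpy-9 and dpy-10 average 39.4% and 22.3% at Day 6, against 26.5% and 4.58% at L4, and dpy-3 averages 11.7% at Day 6, against 26.1% at L4.

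The 2 L4 libraries disagreed on these genes largely in the order of their exon lengths. The log2 ratio of CPM in L4 replicate 1 over L4 replicate 2 was 3.14 for dpy-9 and 2.74 for dpy-3, the 2 shortest genes, 1.84 for dpy-7 and 1.88 for dpy-2, and 0.13 for dpy-8 and -0.91 for dpy-10, the 2 longest. Spearman's rho of this ratio with exon length was -0.89 over the 6 genes and -0.34 over 12535 tested genes with a known exon length, given as descriptions since all points come from the same pair of libraries. The choice of scaling shifts all these ratios alike and leaves their order as it is. Over the 14 other collagens of body shape rho was 0.18, and Pearson's r with log2 length was -0.52, against -0.93 for the furrow collagens and -0.33 for all genes. Apart from bli-1 (3010 bases) these run from 855 bases in dpy-5 to 1422 bases in sqt-3. After the trend with exon length was taken out of each library, all 6 furrow collagens fell, with log2 fold changes from -8.34 for dpy-3 to -3.99 for dpy-10 (adjusted p between 0.00237 and 0.00492, edgeR), against 17.8% of all genes that fell in this fit.

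**Figure D4:**
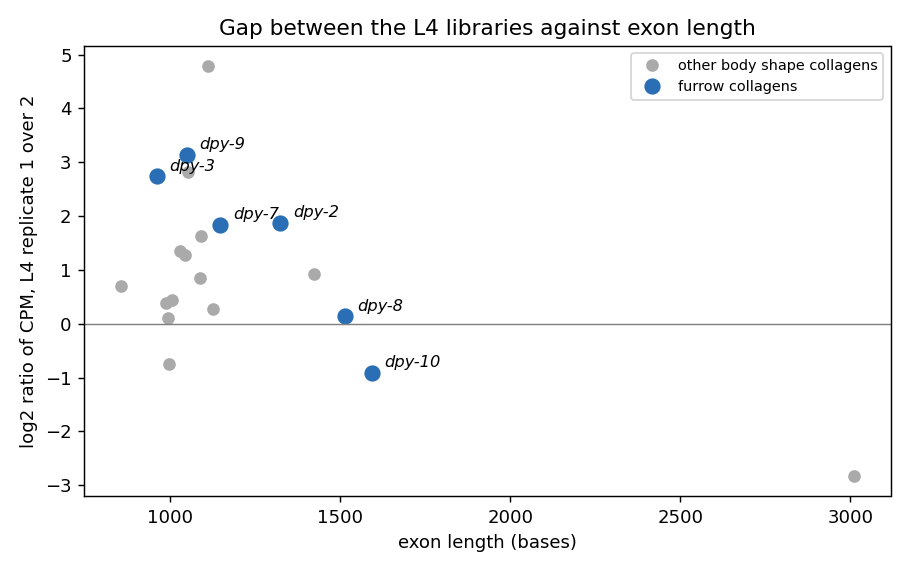
Log2 ratio of CPM in L4 replicate 1 over L4 replicate 2 against summed exon length (bases) for the 6 furrow collagens (blue) and 14 other collagens of body shape (grey). The furrow collagens run from 3.14 for dpy-9 (1049 bases) to -0.91 for dpy-10 (1593 bases). The grey point at 3010 bases is bli-1.

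The L4 libraries also differed in genes of the adult cuticle. The level of col-19, an adult collagen, was 327, 367 and 183 CPM at Day 6, against 18.6 in L4 replicate 1 and 486 in L4 replicate 2 (log2 fold change 0.21, adjusted p = 0.90, edgeR). For col-7, also an adult collagen, there were 1, 7 and 1 counts at Day 6, against 7 and 644 at L4, and the gene did not pass the filter on low counts. Both were far higher in L4 replicate 2, where dpy-9 and dpy-3 were lower than in L4 replicate 1 with or without TMM, and dpy-7 and dpy-2 only after TMM. bli-1 and bli-2, collagens of the struts of the adult cuticle, fell. bli-1 was at 0, 0.613 and 0.774 CPM at Day 6, against 13.4 and 94.8 at L4 (log2 fold change -6.92, adjusted p = 0.0132, edgeR), and bli-2 at 0, 2.26 and 2.14 CPM at Day 6, against 240 and 223 at L4 (-7.32, adjusted p = 0.0124). Unlike col-19, these collagens were lower in all Day 6 libraries than in either L4 library. Their part in the gap between the L4 libraries was not tested.

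Among other collagens of body shape, 12 of 14 tested genes fell, 1 rose and 1 did not pass (edgeR, 12.5% of all genes fell and 14.3% rose). Their median log2 fold change was -7.95, against -6.88 for the furrow collagens. The difference between these lists was not tested. dpy-13 and dpy-4, the most abundant of those that fell, had log2 fold changes of -8.09 (SE 0.92, adjusted p = 0.00354) and -8.26 (SE 1.04, adjusted p = 0.00409). dpy-14 rose, with 556 counts at Day 6 and 3 at L4, a ratio of 52.7 after scaling (95% exact interval 17.9 to 256, counting error only), and did not pass with the replicate block by library names (adjusted p = 0.10). dpy-17 was at 10.5, 5.42 and 5.96 CPM at Day 6, against 7.28 and 0.265 at L4 (log2 fold change 1.04, adjusted p = 0.51, and 4.83, adjusted p = 0.000848, without L4 replicate 1). Of the genes named col-, 85 of 113 tested fell and 7 rose, with a median of -6.99. Among all 133 cuticle collagens tested, 40 had a lower fold change than dpy-3, 52 than dpy-7, 68 than dpy-8, 74 than dpy-2, 78 than dpy-9 and 99 than dpy-10, so that the furrow collagens lay within the range of the others. Collagen genes are alike, and reads may have been shared among them. Of 3 collagens of basement membranes, which are not part of the cuticle, none fell and cle-1 rose (2.60, adjusted p = 0.0298), but not with the replicate block (adjusted p = 0.0784 by titles and 0.15 by library names).

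Few genes that process collagen passed the test, in which 12.5% of all genes fell and 14.3% rose. Of 13 tested genes of hydroxylation, crosslinking, cleavage and secretion of collagen, 1 fell and none rose. It was dpy-18, a subunit of prolyl 4-hydroxylase, at 53.4, 29.3 and 31.3 CPM at Day 6, against 252 and 257 at L4 (log2 fold change -2.74, SE 0.54, adjusted p = 0.0121, edgeR). It did not pass with the replicate block (adjusted p = 0.10 by titles and 0.15 by library names). Without L4 replicate 1 the log2 fold change of dpy-18 was -2.68. The median of this list was -1.03 with all libraries.

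Genes of the moulting cycle fell in part, where 12.5% of all genes fell and 14.3% rose. Of 18 tested, 10 fell and none rose, with a median log2 fold change of -2.75. mlt-8 was at 1.86, 2.45 and 1.91 CPM at Day 6, against 279 and 213 at L4 (-6.89, SE 0.58, adjusted p = 0.00353), and noah-2, a zona pellucida protein of the apical matrix, had a fold change of -4.65 (adjusted p = 0.00583). Of 12 transcription factors of the epidermis and of moulting, 3 fell (lin-42, myrf-1 and bed-3, of which bed-3 was named after its values were seen) and 1, lin-26, rose. lin-42, the worm counterpart of Period, whose transcripts cycle with the moults, was at 0.365, 0.518 and 0.893 CPM at Day 6, against 78.4 and 80.5 at L4 (-7.08, SE 0.62, adjusted p = 0.00353). Its L4 libraries were nearly equal after TMM, but not in unscaled CPM (23.01 and 130). myrf-1 was at -3.13 (adjusted p = 0.00755). nhr-23, a nuclear receptor needed for moulting, was at 14.1, 12.1 and 12.4 CPM at Day 6, against 10.8 and 3.44 at L4 (0.88, adjusted p = 0.32). With the replicate block, by either numbering, lin-42 was the only 1 of the 12 that passed (myrf-1 at adjusted p = 0.0568 by titles and 0.14 by library names, edgeR). Of the moulting genes 9 fell by titles and 8 by library names, against 5.06% and 2.81% of all genes. With the exon length trend removed 7 of the 12 fell and none rose, against 17.8% of all genes that fell. lin-26 was at 1.12 in this fit (adjusted p = 0.16, edgeR).

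Markers of the epidermis, which makes these collagens, mostly did not pass the test, in which 12.5% of all genes fell and 14.3% rose. Of 10 tested, vab-19, an attachment protein, fell (-1.84, adjusted p = 0.0253, edgeR), lin-26, a factor of epidermal fate, rose (2.06, adjusted p = 0.0249) and 8 did not pass, with a median of -0.50. With the replicate block, by either numbering, none of the 10 passed (adjusted p of vab-19 0.22 and 0.30, of lin-26 0.17 and 0.34). Their summed level was 281 to 351 CPM at Day 6, against 286 and 474 in L4 replicates 1 and 2. The 6 furrow collagens together had 0.0152, 0.0211 and 0.0271 counts per count of these markers at Day 6, against 3.75 and 0.576 at L4, a ratio that does not depend on library scaling. The lower L4 value was 21.2-fold above the highest Day 6 value. The markers have 1466 exon bases (elt-3) to 24099 (vab-10), mostly more than the collagens, so that the value of L4 replicate 1 also carries the length trend of that library. None of 5 tested markers of seam cells passed.

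**Figure D5:**
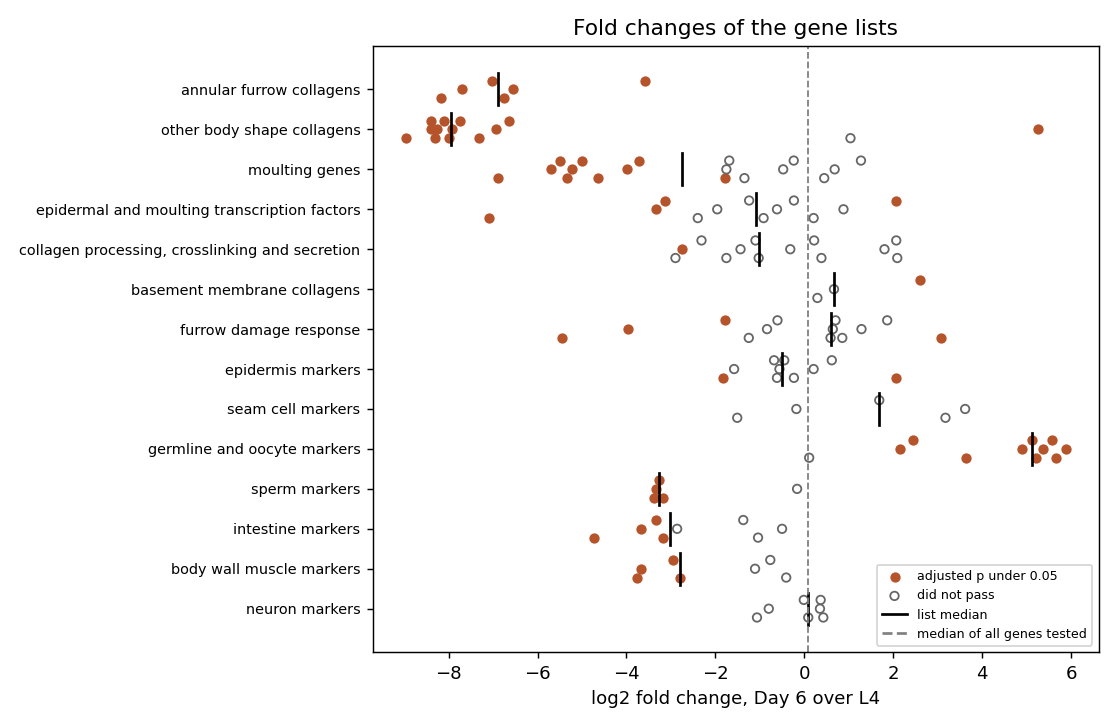
Log2 fold changes (Day 6 over L4) of tested genes in each list, filled where the adjusted p was under 0.05, with list medians (black bars) and the median of all genes tested (dashed line, 0.08). The furrow collagens (median -6.88) and other collagens of body shape (-7.95) lie far to the left, markers of the epidermis (-0.50) near the dashed line.

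The list tied to loss of furrow collagens holds genes that respond to it and genes that hold the osmotic response down. Of 13 tested, 1 rose, 3 fell and 9 did not pass, with a median of 0.59. Among all genes 14.3% rose and 12.5% fell. hmit-1.1, an inositol transporter of the osmotic response, was at 42.4, 35.6 and 33.7 CPM at Day 6, against 3.29 and 5.43 at L4 (log2 fold change 3.07, SE 0.55, adjusted p = 0.00919, edgeR). gpdh-1, which makes the osmolyte glycerol, was at 26.4, 17.6 and 23.8 CPM at Day 6, against 15.03 and 3.84 at L4 (1.29, adjusted p = 0.19, and 2.63, adjusted p = 0.000603, without L4 replicate 1). The antimicrobial peptide gene nlp-29 was at 0.64 (adjusted p = 0.39, edgeR). Its relatives nlp-27, nlp-28, nlp-34 and nlp-31 were at 0.70, 1.87, 0.85 and -0.60 and did not pass either. With the exon length trend removed nlp-28 passed as a rise (2.80, adjusted p = 0.00717, edgeR). gst-4 and gcs-1, genes of detoxification, were at -0.84 and 0.59 (adjusted p = 0.41 and 0.48, edgeR). Those that fell were osm-7 (-1.79, adjusted p = 0.0338), nlp-30 (-3.97, adjusted p = 0.00697) and osm-8 (-5.45, adjusted p = 0.0178, named after its values were seen). osm-8 and osm-7 encode secreted proteins that hold the osmotic response down, so that their fall is not a fall of responding genes. osm-8 had 0, 5 and 4 counts at Day 6, against 14 and 152 at L4. With the replicate block 1 rose and 2 fell by titles, where osm-7 did not pass (adjusted p = 0.32, edgeR). By library names none passed (hmit-1.1 at adjusted p = 0.10, nlp-30 at 0.12). Of all 12758 genes 817 rose and 645 fell by titles, and 412 rose and 359 fell by library names.

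Other tissues moved with the stage, where 12.5% of all genes fell and 14.3% rose. Of 11 tested germline and oocyte markers 10 rose, their summed level being 4216 to 9540 CPM at Day 6, against 407 and 268 at L4, with cbd-1 and puf-5 at log2 fold changes of 5.57 and 5.88 (adjusted p = 0.0132 and 0.00667, edgeR). With the exon length trend removed 7 rose, and with the replicate block 7 by titles and 3 by library names, cbd-1 passing in neither block (adjusted p = 0.0749 and 0.27, edgeR). Of 12758 genes 1749 rose with the trend removed, and 817 and 412 with the blocks. Of sperm, intestine and body wall muscle markers 4 of 5, 4 of 8 and 4 of 7 fell, with gsp-3, act-5 and lev-11 at -3.34, -4.72 and -3.77 (adjusted p = 0.0138, 0.0222 and 0.0351), and none of 7 neuron markers passed. Without L4 replicate 1 act-5 was at -2.68 and lev-11 at -2.12, and the median of intestine markers was -1.43, against -3.02 with all libraries. Among neuron markers snb-1 was then at 1.53 and ric-4 at -1.68, against -0.01 and -0.80 with all libraries. With the replicate block 3, 1 and 0 of the sperm, intestine and muscle markers fell by titles and 0, 1 and 0 by library names. Of all genes 5.06% and 2.81% fell in these fits. act-5 (adjusted p = 0.24 and 0.44, edgeR) and lev-11 (0.34 and 0.51) passed in neither. No marker of these lists was at 0 in all 5 libraries. The part of these shifts in the levels of the furrow collagens was not tested.

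The genes with the profile most like that of the furrow collagens were sought among 6260 other genes whose mean reached 10 CPM, by the Euclidean distance of centred log2 levels over the 5 libraries from the mean of the 6. The 10 nearest were R57.2 (0.696), hphd-1 (0.757), asp-14 (0.765), sqt-3 (0.862), C01F1.5 (0.893), dao-2 (0.903), lpr-5 (0.914), T03G6.1 (0.936), grd-5 (0.945) and rips-1 (0.969). All 10 lay nearer to this mean than 5 of the 6 furrow collagens did, dpy-2 being the exception. sqt-3 is a cuticle collagen, at 11.2, 8.53 and 8.34 CPM at Day 6, against 1228 and 648 at L4. lpr-5 encodes a lipocalin-related protein and grd-5 a Hedgehog-related one. asp-14, an aspartyl protease, was at 2.36, 2.45 and 3.28 CPM at Day 6, against 579 and 161 at L4. The log2 fold changes of these 10 genes ran from -8.08 for C01F1.5 to -6.02 for grd-5. Each was higher in L4 replicate 1 than in L4 replicate 2 after TMM, but only dao-2 was in unscaled CPM. Their fold changes and their order of the L4 libraries after TMM follow largely from the choice by profile over the same libraries.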

How the data were processed

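Per the labels and the paper's methods, the authors depleted rRNA, made strand-specific cDNA, aligned single reads to WormBase WS254 with TopHat2 and made whole-number counts per gene with featureCounts. Tool versions, the strand setting and how multi-mapping reads were handled are not given in the sources used here. The deposited counts precede their normalization and their DESeq2 test.

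Of 19176 features, 17858 were named through WormBase IDs. Positions and exon lengths came from Ensembl release 115 of WBcel235. The comparison used edgeR 4.0.16 under R 4.3.3 (quasi-likelihood test, TMM, filterByExpr at 10 counts and 15 in total, Benjamini-Hochberg adjustment over the 12758 genes kept, called under 0.05). Standard errors are the fold change over the square root of F. CPM is given without a prior count; log2 levels used a prior count of 2. The filter kept all 6 furrow collagens.

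The alternatives were RLE, upper-quartile and library size scaling, DESeq2 1.42.0, voom (limma 3.58.1), no filter, at least 1 CPM in 2 libraries, each library left out, the replicate as a block, and removal of the exon length trend (lowess, span 0.3). The methods state that samples of a replicate were prepared together, so replicate numbers mark a shared preparation, but titles and library names number the L4 libraries differently and both blocks were run. Deviations from group means of same-numbered libraries correlated at 0.34 and 0.27 by titles and -0.27 and 0.13 by library names. Furrow collagens, gene lists and tests were chosen with earlier results of these data known. Named genes were the 6, the adult cuticle list, up to 2 rises and 2 falls of the highest mean CPM per list, and the 10 nearest profiles. The test was tested on simulated data. Promoter motifs were not searched, as no genome sequence was used here. Tables and plots used Python 3.11.15, pandas 2.3.3 and matplotlib 3.10.9.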

Additional observations from a re-analysis of the deposited data

How the results depend on the processing

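Of 96 fold changes of the 6 furrow collagens under 16 alternatives none changed sign, and 90 passed the test as with all libraries. Those that did not were dpy-8 with library size scaling (-6.32) and dpy-10 with library size scaling (-3.45), with the replicate block by library-name numbers (-3.60) and without single Day 6 libraries (from -3.98 to -3.33; over all 5 left-out libraries -3.98 to -3.05). By the title numbers the replicate block gave 817 higher and 645 lower genes of all tested, 412 and 359 by library-name numbers. Which numbering marks the shared preparation of L4 and Day 6 samples was not settled. Among all genes, 1829 rose and 1601 fell; library size scaling gave 150 and 175, DESeq2 3015 lower, and leaving out single libraries 240 to 4837 higher and 298 to 3450 lower. With the exon length trend removed and without L4 replicate 1 they were 3662 and 3490. The median of all genes moved by up to 0.97 (without L4 replicate 2). Relative to it, the median of the 6 furrow collagens lay at -8.45 to -5.73 over these settings. Of the other listed genes, 14 rose and 42 fell; library size scaling gave 7 and 15, the block 9 higher by titles and 3 and 22 by library names, leaving out single libraries 4 to 33 and 15 to 62, and the length trend removed without L4 replicate 1 24 and 64. The share of dpy-2 was 0.143 points higher at Day 6, but -0.337 in raw counts and -0.571 to 1.101 without single libraries, and that of dpy-8 ran from -13.4 to 1.90. With 2 L4 libraries that disagree, a difference of fold change between furrow collagens is poorly resolved, and the Day 6 levels rest on 3 to 53 counts per library.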

Other observations

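The nearest analysed genes on either side of the furrow collagens did not move as a group. R02D3.8, which starts 199 bases beyond dpy-9 on the same strand, had 850, 580 and 509 counts at Day 6, against 15 and 84 at L4 (log2 fold change 2.63, standard error 0.54, adjusted p = 0.0137, edgeR), while dpy-9 fell. npax-2, a gene of the same strand 1631 bases from dpy-3, had 3, 1 and 1 counts at Day 6, against 21 and 40 at L4 (-5.58, adjusted p = 0.00681). T14B4.5, 891 bases beyond dpy-2, was at 1.36, 1.27 and 2.62 CPM at Day 6, against 12.2 and 3.90 at L4 (-2.18, adjusted p = 0.0613). col-174, a collagen gene 9016 bases from dpy-7 (glb-16 lies between them and was not analysed here), fell (-6.44, adjusted p = 0.0063). Neither tbc-7 beside dpy-8 (-0.35, adjusted p = 0.65) nor ceh-14 beside dpy-7 (0.07, adjusted p = 0.95) nor pqbp-1.1 beside dpy-9 (0.71, adjusted p = 0.39) nor rpy-1 beside dpy-10 (-1.51, adjusted p = 0.16) passed the test.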
